A study of Mus musculus with 4 samples.

Results

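The 10 genes described are genes of polyamine metabolism, taken by symbol from the deposited matrices, which list 32285 genes: Odc1, Azin1, Oaz1, Oaz2, Amd1, Srm, Sms, Sat1, Smox and Eif5a. They cover the synthesis of polyamines, its control by antizymes, polyamine breakdown, and the protein that carries hypusine, an amino acid made from spermidine. Bone marrow chimeras of the C57/BL6 strain carried WT or VISTA KO donor marrow. VISTA, the product of Vsir, is an immune checkpoint protein found on myeloid cells and T cells. MC38 tumors, a transplanted mouse colon carcinoma, were given after 6 weeks of reconstitution, taken at 9 to 10 mm, pooled and digested. CD45.1 and CD45.2 staining separated WT from VISTA KO cells before viable CD11b+ cells went through the sort. The groups had 1 gene expression library each, with antibody tags for CD11c, Ly6G and Ly6C read in the same cells.

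Polyamines are small positively charged molecules that bind nucleic acids and are needed for growth. Ornithine decarboxylase (Odc1) makes putrescine from ornithine, Amd1 makes the aminopropyl donor, and spermidine synthase (Srm) and spermine synthase (Sms) extend the chain. Antizymes (Oaz1, Oaz2) send ornithine decarboxylase to the proteasome, the antizyme inhibitor Azin1 holds antizymes off, Sat1 acetylates spermidine and spermine for export or breakdown, Smox oxidises spermine back to spermidine, and Eif5a is the translation factor that needs hypusine to work. In macrophages arginine is a main source of ornithine, through arginase.

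The WT library held 10241 barcodes and 61753547 gene UMIs (unique molecular identifiers, each standing for 1 captured RNA molecule), and the VISTA KO library 15257 barcodes and 80366761 UMIs. The filters left 10193 WT cells at a median depth of 4692 UMIs and 15140 VISTA KO cells at 4212. The libraries shared 47 barcode sequences, 46 of them among kept cells, and these were treated as separate cells. Vsir itself stood in the VISTA KO library at 33.8% of its WT level. The sources used here do not name the deleted part of the gene, so 3 prime counts need not check the genotype. They also do not give the number of animals behind the pool. Clusters left without a name held 15.4% of WT and 45.4% of VISTA KO cells, and the labelled sort for myeloid suppressor cells also held NK cell-like, T cell-like and fibroblast-like cells. In a chimera, fibroblast-like cells may be of host origin. There was no replicate library, so no test between groups was possible, and each interval below is a 95% interval that covers counting error only. Levels are UMIs per 1000000 UMIs summed over a class (CPM). All 10 genes passed 100 UMIs over both libraries. The clustering could draw on these genes too, so levels by class are a description.

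All 10 are protein-coding genes, given with their identifiers in the matrices and their RefSeq positions in GRCm38.p6. The control genes of synthesis are Odc1 (ENSMUSG00000011179) at chr12:17544808-17551502, Azin1 (ENSMUSG00000037458) at chr15:38487430-38519294, Oaz1 (ENSMUSG00000035242) at chr10:80826656-80829290 and Oaz2 (ENSMUSG00000040652) at chr9:65676548-65690300. The other enzymes of synthesis are Amd1 (ENSMUSG00000075232) at chr10:40287458-40302188, Srm (ENSMUSG00000006442) at chr4:148591513-148594619 and Sms (ENSMUSG00000071708) at chrX:157443851-157492287. Breakdown is covered by Sat1 (ENSMUSG00000025283) at chrX:155213126-155216449 and Smox (ENSMUSG00000027333) at chr2:131491858-131525183, and hypusine is carried by Eif5a (ENSMUSG00000078812) at chr11:69916712-69921958.

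Promoter windows are shown because Odc1, Srm, Sms and Eif5a stood higher, and Sat1 and Smox lower, in the cycling macrophage-like cells described further on. RefSeq windows of GRCm38.p6 were matched for 8 of the 10 genes, 14 windows in all, each 250 bases ending at the base before an annotated start. Srm and Azin1 had no entry. The letters CACGTG (an E-box, the same on both strands, the letters bound by MYC and MAX) and GGGCGG (a GC box, read on both strands, so also as CCGCCC) were searched, and the motifs did not overlap each other in the windows printed. Capitals mark GGGCGG or CCGCCC in Odc1 and Smox and CACGTG in Sms and Eif5a. The windows are Odc1 at chr12:17544623-17544872 on the plus strand, Sms at chrX:157492288-157492537 and Eif5a at chr11:69921387-69921636 on the minus strand (before the second of 6 annotated starts, inside the gene), and Smox at chr2:131491612-131491861 on the plus strand, each written 5′ to 3′ along the gene. The Odc1 and Smox windows end past the first base of the gene as positioned above.
Odc1: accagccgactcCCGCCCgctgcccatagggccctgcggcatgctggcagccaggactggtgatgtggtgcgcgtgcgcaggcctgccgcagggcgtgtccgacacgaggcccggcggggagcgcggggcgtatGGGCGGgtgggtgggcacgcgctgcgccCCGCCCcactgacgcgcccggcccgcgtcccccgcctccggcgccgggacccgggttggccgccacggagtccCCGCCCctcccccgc
Sms: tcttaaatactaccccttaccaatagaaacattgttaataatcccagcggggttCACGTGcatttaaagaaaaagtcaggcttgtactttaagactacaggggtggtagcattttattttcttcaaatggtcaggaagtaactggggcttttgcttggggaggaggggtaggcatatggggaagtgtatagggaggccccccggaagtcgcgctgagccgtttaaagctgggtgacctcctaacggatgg
Eif5a: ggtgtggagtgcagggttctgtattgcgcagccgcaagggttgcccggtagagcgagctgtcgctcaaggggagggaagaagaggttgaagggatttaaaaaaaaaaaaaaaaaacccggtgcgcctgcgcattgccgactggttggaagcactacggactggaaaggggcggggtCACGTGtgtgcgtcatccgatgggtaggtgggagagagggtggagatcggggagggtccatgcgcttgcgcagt
Smox: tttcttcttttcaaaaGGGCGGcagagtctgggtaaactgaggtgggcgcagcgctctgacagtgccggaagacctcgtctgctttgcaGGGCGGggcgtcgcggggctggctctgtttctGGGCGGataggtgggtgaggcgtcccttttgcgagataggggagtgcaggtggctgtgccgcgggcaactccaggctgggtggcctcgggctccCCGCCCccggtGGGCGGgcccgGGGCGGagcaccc

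The Odc1 window held 4 GC boxes and no E-box, and 80.0% of its bases were G or C, against a median of 52.4% over 32851 windows. In Smox 6 GC boxes were found, and the second Sms window, not printed, held 4. GC boxes were found in 7 of the 8 genes, counted per gene over all of its windows, up to 6 for Eif5a. This count is not comparable with the shares of single windows that follow. Of all windows, 32.7% held at least 1 GC box, 4.09% at least 4 and 0.886% at least 6. Sms, which has 2 windows, held its E-box 196 bases before the first of its starts. For Eif5a, 3 of 6 windows held an E-box, in the printed one 74 bases before the start, and some of these windows overlap. E-boxes were found in 6.02% of all windows and in 4 of the 14 windows of the 8 genes, only in Sms and Eif5a. Such a match is a description of letters and says nothing of binding, and a missing match says only that the letters are not in this window.

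Odc1, the first enzyme of polyamine synthesis, stood far higher in WT T cell-like cells than in any other WT class. It stood there at 601 CPM (548.5 to 657), against 120 (86.9 to 160) in 40 fibroblast-like cells, 74.9 in NK cell-like, 66.6 in cDC2-like (type 2 conventional dendritic cells), 62.8 in macrophage-like, 57.3 in mature DC-like and 30.7 in monocyte-like cells. The T cell-like level was 9.58-fold that of macrophage-like cells, a log2 ratio of 3.26 (3.08 to 3.44), and among classes with at least 50 cells every neighbouring pair below it in the order overlapped in its intervals. In the VISTA KO library the T cell-like class held only 16 cells and 22 Odc1 UMIs, at 274 CPM (172 to 415), while 147 cells and 484 UMIs stood behind the WT value. These 16 cells also differed in kind from the WT cells: Cd8a was found in 37.5% (15.2 to 64.6) against 4.08% (1.51 to 8.67), and Foxp3 in 12.5% (1.55 to 38.3) against 46.3% (38.0 to 54.7). An Odc1 UMI was found in 7 of the 16. Macrophage-like cells stood at 69.5 CPM there, NK cell-like at 64.5 and monocyte-like at 28.6, so that monocyte-like cells held 2.04-fold less Odc1 than macrophage-like cells in WT and 2.43-fold less in VISTA KO.

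Odc1 was found in most T cell-like cells of the WT library. Of the 147 WT cells, 98 held an Odc1 UMI, the median was 2 and the highest cell held 31. The 10 highest cells held 38.8% of the UMIs, and 437 CPM were left without them. After thinning to 1000 UMIs per cell 42.5% of WT T cell-like cells held an Odc1 UMI (66.7% unthinned, 6 left out), against 2.44% of monocyte-like cells (12.0% unthinned, 38 left out), with median depths of 3722 and 4488 UMIs. The cluster expressed Cd3d in 91.2% and Cd4 in 34.0% of WT cells but Cd8a in 4.08%, and its leading genes included Foxp3, Ctla4 and Tnfrsf4, which are marks of regulatory T cells. Cells with a Foxp3 UMI stood at 645 CPM of Odc1 (570 to 727, 68 cells) and cells without one at 553 (481 to 632, 79 cells), and these intervals overlap. Nor did Odc1 follow the cell cycle in this class: 19 cycling cells stood at 629 CPM (527 to 745) and 73 cells with none of the cycling genes at 631 (538 to 736). Sat1 did differ there, at 145.5 CPM (98.9 to 206) in cycling and 306 (242 to 381) in the other T cell-like cells. Of the other genes Sms, at 88.1 CPM (68.8 to 111), and Oaz1, at 1476 (1393 to 1562), were highest in WT T cell-like cells among classes with at least 50 cells, while Sat1 was lowest there, at 269 (235 to 308), with 461 (324.5 to 635) in the 16 VISTA KO cells. The Sms and Sat1 intervals overlapped those of WT NK cell-like cells, at 77.3 (66.8 to 89.0) and 319 (297 to 342). Under alternatives NK cell-like Sms went as high as 103.5 and Sat1 as low as 205.5 in WT, past the T cell-like levels. Azin1, at 52.1 CPM, and Srm, at 22.4, in WT T cell-like cells were close to their macrophage-like levels of 49.9 and 21.4.

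**Figure D1:**
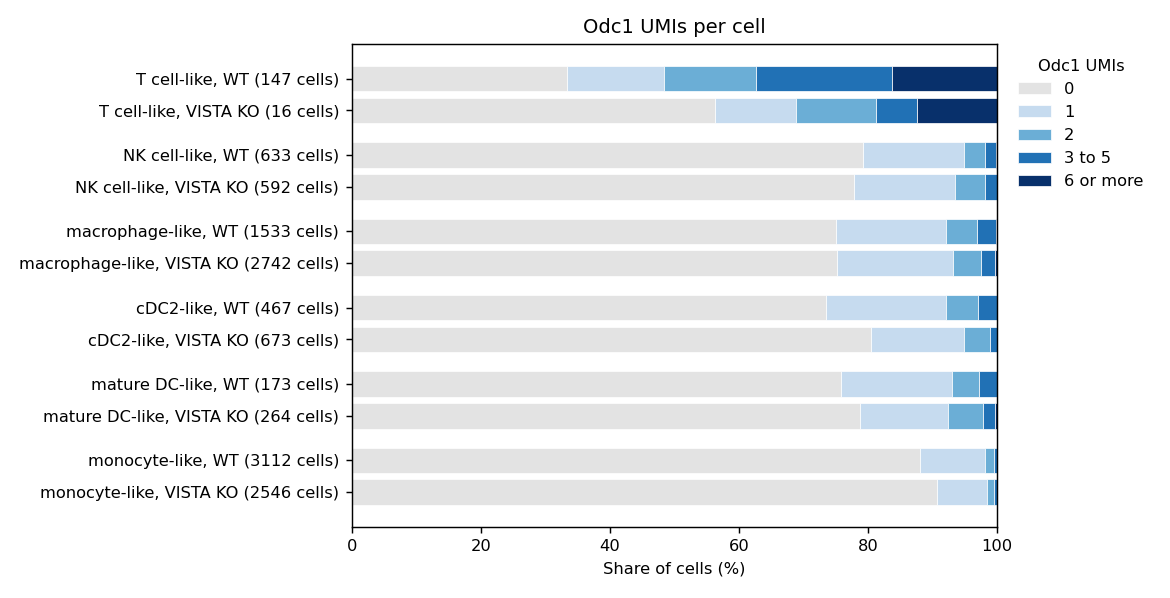
Share of cells (horizontal axis, percent) with 0, 1, 2, 3 to 5 or 6 or more Odc1 UMIs (shades of blue), in 6 classes of the WT and VISTA KO libraries, without thinning. T cell-like cells stand apart, with 24 of 147 WT cells at 6 or more UMIs against 3 of 1533 WT macrophage-like cells.

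Sms, which makes spermine, stood higher in NK cell-like than in macrophage-like and monocyte-like cells in both libraries. NK cell-like cells held 77.3 CPM (66.8 to 89.0) in WT and 71.2 (61.7 to 81.7) in VISTA KO, macrophage-like cells 51.8 and 44.0, and monocyte-like cells 22.3 and 19.6. The intervals of these 3 classes did not overlap in either library. In T cell-like cells of VISTA KO it rested on 4 UMIs, at 49.8 (13.6 to 128). Srm, which makes spermidine, was likewise lower in monocyte-like cells (9.37 and 6.08 CPM) than in macrophage-like cells (21.4 and 16.6) and was highest in the few fibroblast-like cells, at 128 (93.8 to 170) in 40 WT and 37.6 (22.3 to 59.4) in 72 VISTA KO cells. In mature DC-like cells Srm rested on 2 WT and 22 VISTA KO UMIs. Amd1, which supplies the aminopropyl groups, stood between 4.25 and 12.8 CPM in the monocyte-like, macrophage-like, cDC2-like, mature DC-like and NK cell-like classes of both libraries. Its near copy Amd2 had 32 and 17 UMIs in all, and reads of the pair may be shared by the counting, so that the Amd1 level is uncertain.

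Eif5a was highest among the larger classes in cDC2-like cells. These held 833 CPM (799.5 to 868) in WT against 743.5 (716 to 772) in VISTA KO. It was lowest in neutrophil-like cells, at 312 and 269. Mature DC-like cells held 406 and 421 CPM, so the dendritic classes lay on opposite sides of macrophage-like cells (550 and 505). Fibroblast-like cells held 1255 and 816 CPM. Oaz1, the main antizyme, lay in a narrow band from 1094 to 1210 CPM in the monocyte-like, macrophage-like, cDC2-like, mature DC-like and NK cell-like cells of WT, and from 982 to 1138 in those of VISTA KO. It was lower in WT neutrophil-like cells, at 505 CPM (447 to 569), while those of VISTA KO, at 836 (670 to 1031), overlapped macrophage-like cells. It was lower in cluster 4, at 807 and 615. Cluster 4 was the unnamed group of droplets with few UMIs (medians of 984 and 882), a mitochondrial median of 2.85% and 3.64% and Malat1, a nuclear RNA, at 35820 and 54970 CPM, against 10150 and 13410 over all kept cells. The part of RNA quality in its low Oaz1 was not tested. Oaz2 stood at 16.4 and 16.5 CPM in macrophage-like cells and was highest in cluster 16 of WT, at 29.3 (18.6 to 44.0), and in cluster 10 of VISTA KO, at 33.7 (21.6 to 50.1). Both rest on few UMIs, 23 and 24. Azin1 was highest in cluster 10, at 87.0 and 85.7 CPM, against 49.9 and 49.5 in macrophage-like cells.

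**Figure D2:**
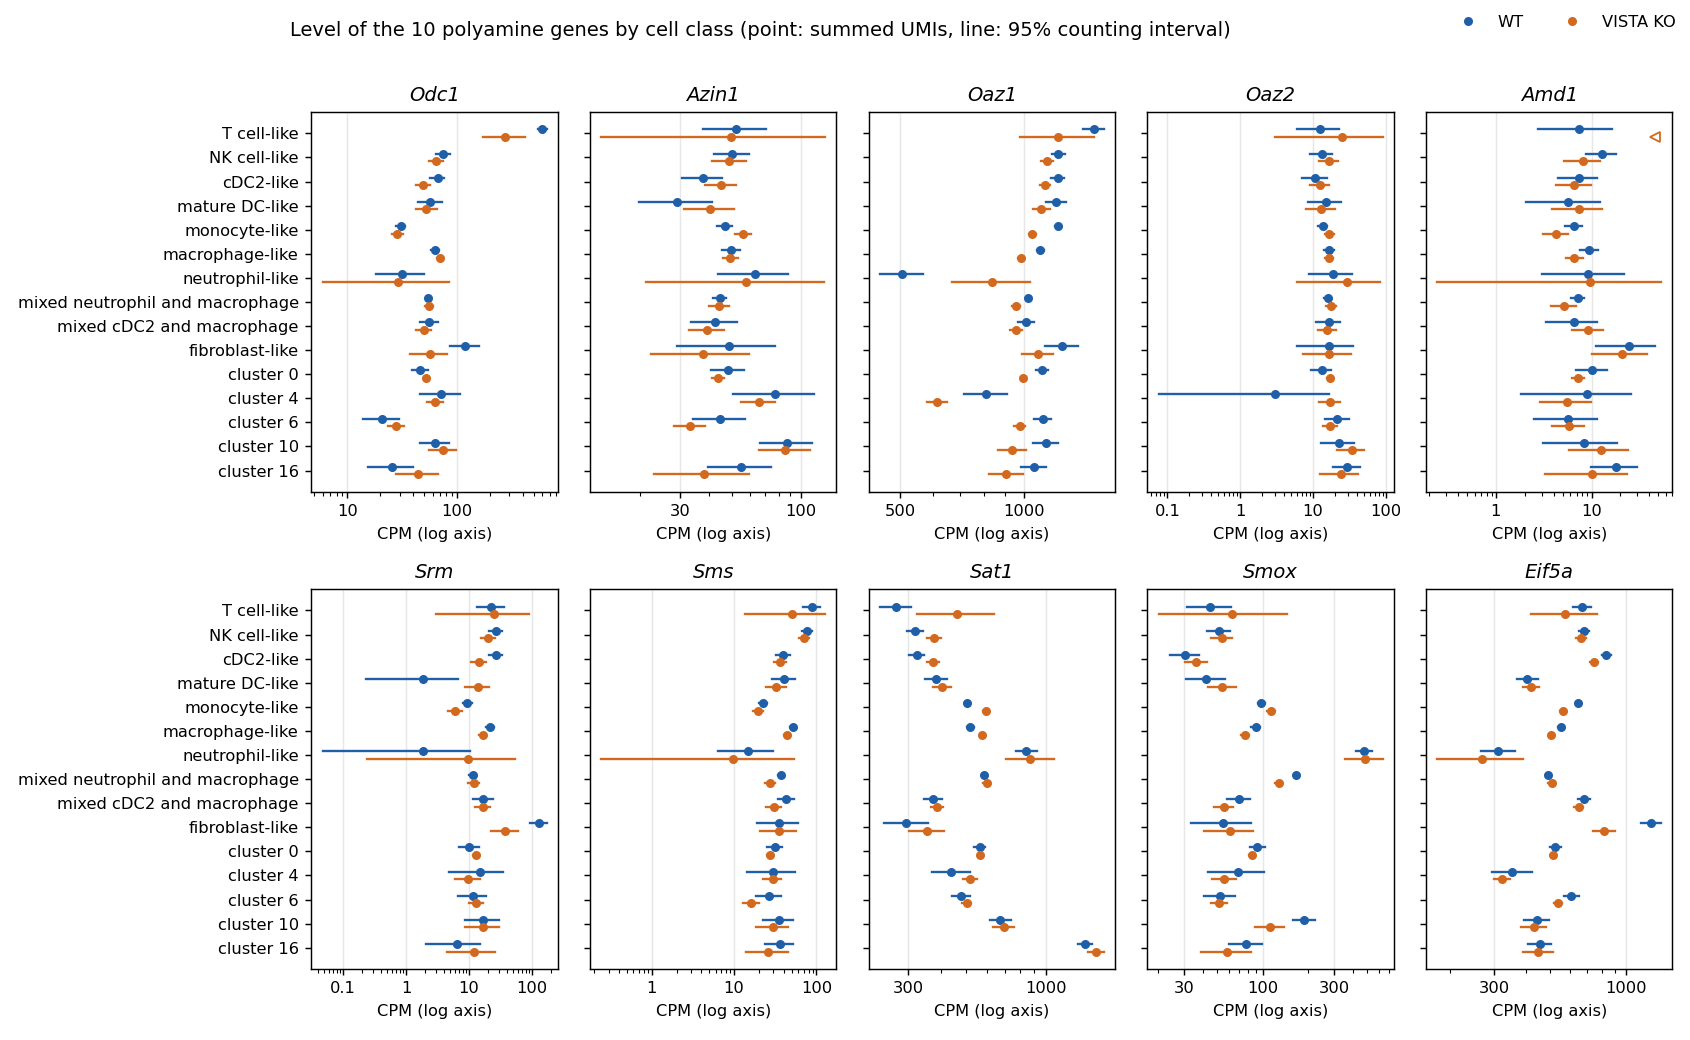
Level of each of the 10 genes in CPM (horizontal log axes, scaled per gene) in 15 cell classes or clusters, with WT in blue and VISTA KO in orange. Points are summed UMIs over the class, lines are 95% counting intervals, and the open triangle is the upper limit where no UMI was found. Odc1 peaks in T cell-like cells, Smox in neutrophil-like cells and Sat1 in cluster 16.

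The breakdown genes had another order, with cluster 16 and neutrophil-like cells on top for Sat1 and neutrophil-like cells on top for Smox. Sat1, which acetylates polyamines, was highest in cluster 16, where WT cells held 1409 CPM (1327 to 1495) and VISTA KO cells 1548 (1441 to 1662), which is 2.72-fold and 2.70-fold the macrophage-like level. This cluster of 191 WT and 108 VISTA KO cells was left unnamed, and Ace, Adgre4, Treml4 and Fabp4 were among its leading genes. Neutrophil-like cells came next, at 844.5 CPM (769 to 926) and 875 (704 to 1074). Monocyte-like cells held 503 and 594 CPM of Sat1, macrophage-like cells 518 and 574, mature DC-like 384 and 405, cDC2-like 324 and 372.5 and NK cell-like 319 and 375, where WT cells stood at 205.5 when clustered at resolution 2. Monocyte-like and macrophage-like cells thus overlapped in both libraries, and both stood above the dendritic and NK classes.

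Smox, the spermine oxidase, was a gene of neutrophil droplets. Neutrophil-like cells held 475 CPM (419 to 537) in WT and 481 (357 to 634) in VISTA KO, or 5.29-fold and 6.44-fold the macrophage-like level. The mixed neutrophil and macrophage droplets held 167 and 128 CPM and cluster 10 held 189 and 112, against 98.2 and 114 in monocyte-like, 90.1 and 76.0 in macrophage-like and 30.2 and 36.1 in cDC2-like cells (45.6 in WT at resolution 0.5). Neutrophil RNA moved with Smox in these groups but not in all. The summed level of the 12 neutrophil markers was 92980 and 113100 CPM in neutrophil-like droplets, 12410 and 9235 in the mixed droplets, 4519 and 1481 in cluster 10, and 414 and 245 in macrophage-like cells. No neutrophil marker was at 0 in these 4 groups. Mixed basophil or mast cell droplets, in contrast, held 5669 and 3594 CPM of the markers with Smox at 65.1 and 63.0, and mature DC-like cells 1994 and 1188 with Smox at 42.2 and 54.0. The part of neutrophil RNA in the Smox levels was not tested.

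Between the libraries most of the 10 genes differed little. A gene was counted where the log2 ratio of VISTA KO over WT was at least 0.32 in size (the size rule), its interval left out equality and both sums together held 100 UMIs. In all kept cells 1 of 10 passed, Smox, and it was lower in VISTA KO, where 22.6% of the 11499 genes tested passed either way. WT cells held 115 CPM of Smox (112 to 118) and VISTA KO cells 84.1 (82.1 to 86.1), a log2 ratio of -0.45 (-0.50 to -0.40). Without the neutrophil-like and mixed neutrophil droplets the log2 ratio of Smox was -0.10 (-0.16 to -0.03) and none of the 10 genes passed. Over all kept cells the 12 neutrophil markers together stood at 5511 CPM in the WT and 1556 in the VISTA KO library. Smox was also lower within the mixed neutrophil droplets, by a log2 ratio of -0.38 (-0.475 to -0.28), and within cluster 10, by -0.75 (-1.17 to -0.34). The part of droplet numbers in the pooled difference was not tested. The median log2 ratio of the 10 genes was -0.14, against 0.08 over all genes tested.

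In monocyte-like cells the synthesis enzymes Amd1 and Srm were counted as lower in VISTA KO, 2 of 10, a share near the 22.4% of all genes that passed there. Srm stood at 9.37 CPM (7.89 to 11.1) and 6.08 (4.67 to 7.78), a log2 ratio of -0.61 (-1.08 to -0.19) on 141 and 63 UMIs. Amd1 stood at 6.51 (5.29 to 7.94) and 4.25 (3.09 to 5.70), a log2 ratio of -0.60 (-1.17 to -0.09) on 98 and 44 UMIs. In macrophage-like cells the same 2 of 10 were counted as lower, where 13.6% of genes passed. Srm stood there at 21.4 CPM (18.5 to 24.5) and 16.6 (14.6 to 18.8), and Amd1 at 9.44 (7.57 to 11.6) and 6.59 (5.35 to 8.04). Cycling cells, in which Srm was higher, made up 5.28% of WT and 2.59% of VISTA KO macrophage-like cells, the 12 NK cell markers summed to 535 and 1386 CPM (Ncr1 at 0 in WT), and the 12 macrophage markers to 19040 and 23830. Their part in these differences was not tested. Amd1 lies on chromosome 10, as do Oaz1 and Vsir. These calls did not hold when the libraries were clustered alone, where no gene was counted as lower in either class and the Srm log2 ratio in monocyte-like cells was 0.10 (-0.17 to 0.38). The 12 macrophage markers, none of them at 0, summed to 2269 CPM in WT and to 3573 in VISTA KO monocyte-like cells, and median depths were 4488 and 3964 UMIs. Their part in the lower Srm and Amd1 was not tested. Over the 10 genes the median log2 ratio was -0.14 in both classes, against 0.06 in monocyte-like and 0.04 in macrophage-like cells over all genes tested. In monocyte-like cluster 3 Srm stood at 12.5 and 6.47 CPM, a log2 ratio of -0.93 (-1.59 to -0.33). In cluster 1 it stood at 7.52 and 5.71, a log2 ratio of -0.37 (-1.07 to 0.24), and the intervals of these ratios overlap.

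Odc1 and Srm were counted as lower in VISTA KO cDC2-like cells, 2 of the 8 genes with enough UMIs, a share near the 19.2% of all genes that passed there. Odc1 stood at 66.6 CPM (57.2 to 77.0) and 49.0 (42.0 to 56.7), and Srm at 26.5 (20.7 to 33.4) and 14.2 (10.6 to 18.7). The 12 macrophage markers, none at 0, summed to 1028 and 1760 CPM in these cells and the 12 NK cell markers to 602 and 955 (Klra8 at 0 in both libraries, Klrb1c and Eomes in WT), and their part was not tested. Thinning turned the log2 ratio of Odc1 in this class from -0.44 to 0.43 (-0.42 to 1.40). Sms and Smox were counted as lower in the mixed neutrophil and macrophage droplets, 2 of 10, a share near the 17.9% of all genes that passed there. Sms stood at 36.6 and 27.3 CPM and Smox at 167 and 128. Of the 12 neutrophil markers, summed, 12410 CPM were found in WT and 9235 in VISTA KO mixed droplets, and their part in the Smox difference was not tested. None passed in NK cell-like cells (8 tested, 15.8% of genes), in mature DC-like cells (5 tested, 17.2%) or in the unnamed cluster 0 (10 tested, 12.7%). The macrophage marker C1qa stood at 753 and 1020 CPM in NK cell-like cells, so macrophage RNA was present in them. In the remaining groups Sms was counted as lower in mixed cDC2 and macrophage droplets (42.9 and 30.2 CPM, -0.51, -0.95 to -0.06), 1 of 7 tested, where 20.8% of genes passed. Sms was also counted as lower in cluster 6 (26.5 and 16.1, -0.74, -1.31 to -0.12), 1 of 8 tested, where 13.4% passed. Oaz1 was counted as lower in cluster 4 (807 and 615, -0.40, -0.58 to -0.20), 1 of 6 tested, where 22.9% passed, and Smox in cluster 10 (189 and 112), 1 of 5, where 15.3% passed. None of 3 passed in cluster 16, where 17.9% did. Within single clusters of the named classes, Sms also had intervals below equality in cluster 1 (-0.49, -0.91 to -0.11) and cluster 12 (-0.48, -0.81 to -0.15). None of the 10 genes was counted as higher in all kept cells or in any of these classes.

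Some smaller shifts were seen in several classes, nearly all without passing the size rule (Oaz1 in cluster 4 passed, as given above). Sat1 was higher in VISTA KO with an interval above equality in monocyte-like (0.24, 0.19 to 0.29), macrophage-like (0.15, 0.10 to 0.20), cDC2-like (0.20, 0.08 to 0.33) and NK cell-like cells (0.24, 0.10 to 0.37), as log2 ratios. In cluster 16 its interval lay barely above equality (0.14, 0.001 to 0.27). It held equality in mature DC-like cells (0.08), mixed neutrophil (0.03) and mixed cDC2 droplets (0.05). The same held for clusters 0 (-0.005), 4 (0.23), 6 (0.07) and 10 (0.04), and for macrophage-like cluster 11 (-0.08). Oaz1 was lower with an interval below equality in monocyte-like, macrophage-like, cDC2-like and NK cell-like cells, by log2 ratios of -0.21, -0.16, -0.10 and -0.09. Its interval also lay below equality in mature DC-like cells (-0.12) and mixed neutrophil droplets (-0.10). So it did in clusters 0 (-0.15), 4 (-0.40), 6 (-0.19), 10 (-0.27) and 16 (-0.22), while it held equality in mixed cDC2 droplets (-0.08). Eif5a was lower in monocyte-like (-0.20), macrophage-like (-0.12) and cDC2-like cells (-0.16), with intervals below equality, and at -0.04 (-0.14 to 0.05) in NK cell-like cells. Smox lay on opposite sides of equality, at 0.21 (0.10 to 0.32) in monocyte-like and -0.25 (-0.38 to -0.11) in macrophage-like cells, where the neutrophil markers summed to 418 and 360 CPM and to 414 and 245. Malat1 was higher in VISTA KO in the monocyte-like, macrophage-like, cDC2-like and NK cell-like classes. It stood at 7324 and 10280 CPM in monocyte-like and 9944 and 13470 in macrophage-like cells, and its part in these shifts was not tested. The T cell-like and neutrophil-like classes held 16 and 76 VISTA KO cells, and no ratio was taken there.

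**Figure D3:**
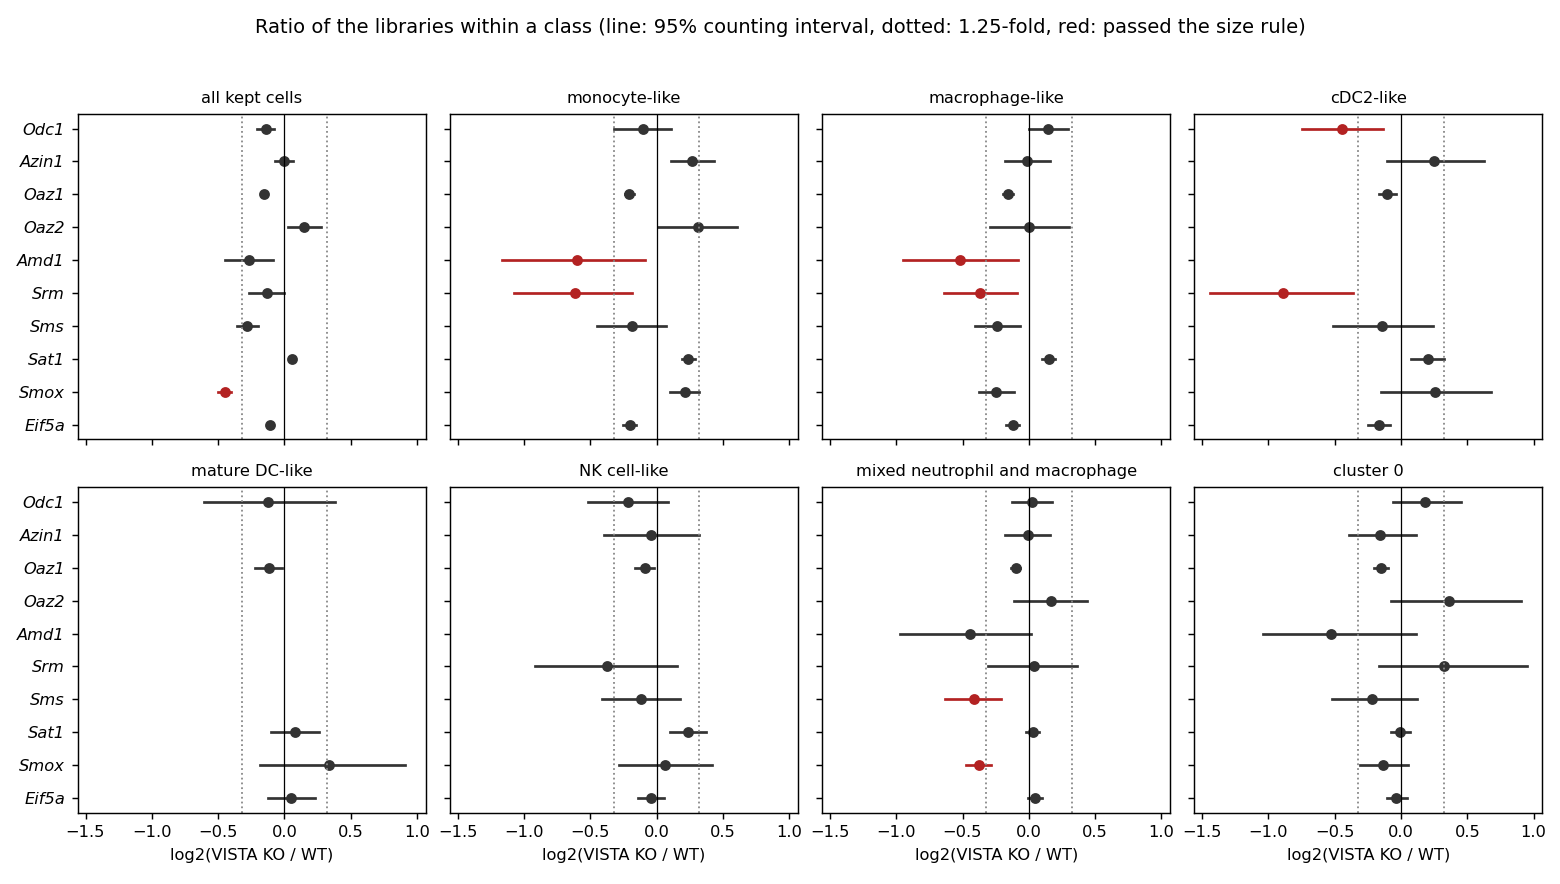
Log2 ratio of VISTA KO over WT (horizontal axis) for each gene in 8 classes, with 95% counting intervals as lines. Dotted lines are the size rule, a log2 ratio of 0.32 in each direction, red marks genes that passed the size rule, and genes under 100 UMIs in a class are not drawn. The red points lie on the lower side, with Smox for all kept cells and Amd1 and Srm in both monocyte-like and macrophage-like cells.

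Within macrophage-like cells several of the genes differed by cluster. Cluster 12, led by Fcrls, Folr2, Birc5 and Mki67, held the highest Srm among the 4 macrophage-like clusters (39.7 CPM in WT, 30.4 in VISTA KO), the highest Eif5a (665 and 596) and the lowest Sat1 (342 and 426) and Smox (57.2 and 41.4). Cluster 9, led by interferon response genes of the Ifit family, held the lowest Srm (8.98 and 7.16) and Odc1 (41.1 and 39.7) and the highest Sat1 (715 and 790). Cluster 11, led by Mmp12, Mmp13 and Hmox1, held the highest Smox (119 and 108) and Sat1 at 680 and 644, but also high Odc1 (68.0 and 79.3), Sms (62.0 and 63.6) and Azin1 (61.5 and 57.3). Sms was highest in cluster 12 of WT (74.2 CPM) but in cluster 11 of VISTA KO, where cluster 12 held 53.2, and Amd1 in cluster 9 stood at 10.9 CPM in WT. Cluster 5, led by Ccl7, Ms4a7, Spp1 and Arg1, lay between these for Srm (19.7 and 17.2), and held Sat1 at 440 and 506. Odc1 was lower in cluster 9 than in the other macrophage-like clusters in both libraries, while in monocyte-like cells it stood at 26.9 and 20.9 CPM in cluster 1 and at 37.1 and 36.5 in cluster 3.

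The Ly6C surface tag, which was not used in the clustering, was set against the genes in macrophage-like cells cut into 3 equal groups by tag count. From the lowest to the highest tag group of WT cells, Sat1 went from 455 CPM (433 to 477) through 510 to 640 (607 to 675). Srm went the other way, from 30.9 (25.6 to 37.0) through 17.3 to 11.03 (7.07 to 16.4), as did Eif5a, from 590 through 558 to 470. In VISTA KO the order was the same for each of these: Sat1 stood at 498, 586 and 706 CPM, Srm at 21.1, 16.5 and 7.73, and Eif5a at 551, 503 and 417. Sms ran from 63.1 to 41.8 CPM in WT and from 55.2 to 29.99 in VISTA KO. For Sat1, Srm, Eif5a and Sms the lowest and highest tag groups did not overlap in either library. Depth moved with the tag, with median UMIs of 6420, 5339 and 3919 in WT and 6217, 4781 and 3328 in VISTA KO, and its part was not tested. In monocyte-like cells Srm went from 13.6 (10.7 to 17.1) to 6.16 (4.02 to 9.03) CPM with Ly6C in WT, and from 6.91 (4.59 to 9.99) to 5.30 (2.90 to 8.90) in VISTA KO, where the intervals overlap. WT Sat1 lay between 499 and 508 in these cells, and in VISTA KO it went from 627.5 to 561.

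**Figure D4:**
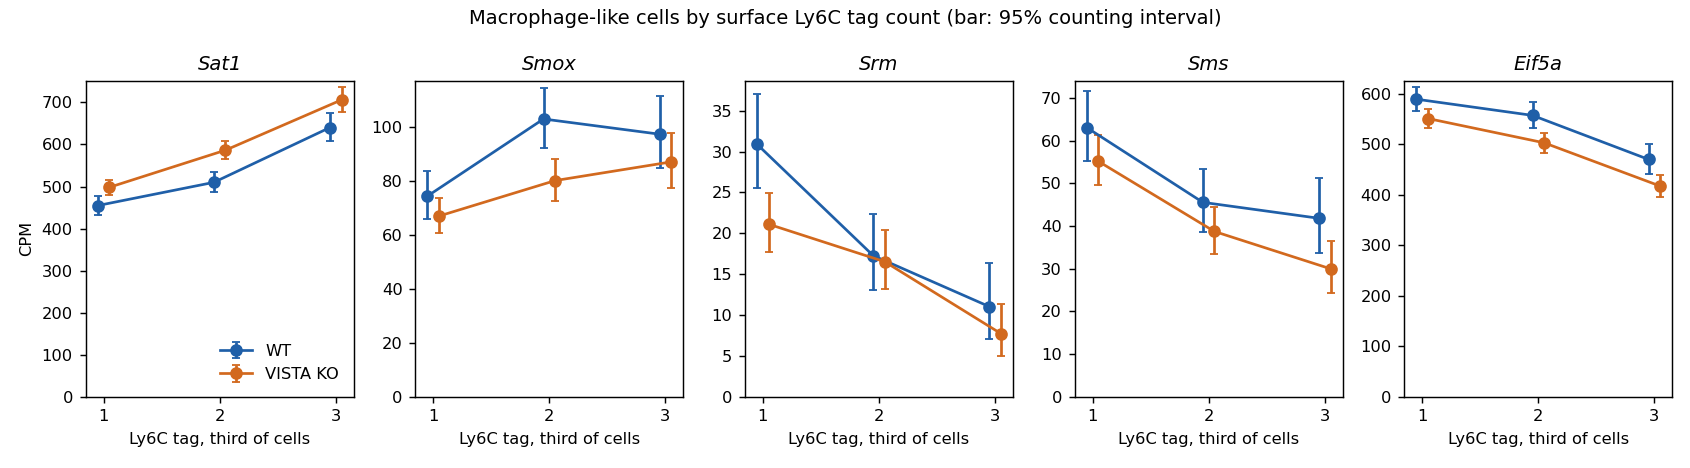
Level of 5 genes in CPM (vertical axes from 0) in macrophage-like cells split into 3 equal groups by the Ly6C tag count (1 is the lowest), with 95% counting intervals as bars, WT in blue and VISTA KO in orange. Sat1 goes from 455 to 640 CPM in WT while Srm goes from 30.9 to 11.03, and VISTA KO has the same order.

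Cycling cells were defined as those with at least 4 of 20 genes of dividing cells, among them Mki67, Top2a and Cdk1, and were set against cells with none. They made up 5.28% (4.22 to 6.53) of WT and 2.59% (2.03 to 3.26) of VISTA KO macrophage-like cells, 81 and 71 cells. Of 9 genes with enough UMIs, 4 were higher in cycling cells (Odc1, Srm, Sms and Eif5a) and 2 were lower (Sat1 and Smox), the same in both libraries, where 34.0% of genes in WT and 28.8% in VISTA KO passed. Over all macrophage-like cells Odc1, Srm, Sms and Eif5a thus stood on one side and Sat1 and Smox on the other, while Amd1 had too few UMIs to be counted. Within cluster 12, described below, only Eif5a in WT and Sat1 in both libraries passed. Srm stood at 46.9 CPM in cycling and 18.1 in other WT cells, a log2 ratio of 1.40 (0.83 to 1.90), and at 30.5 and 14.6 in VISTA KO, 1.11 (0.34 to 1.72). By number of these genes, Srm was highest in cells with 4 to 7 of them. Just below the cut, cells with 2 or 3 stood at 25.3 CPM (13.8 to 42.4) in WT and 18.8 (11.8 to 28.5) in VISTA KO. The 29 WT cells with 4 to 7 of the genes stood at 94.2 CPM (62.1 to 137), but the 52 with 8 or more at 25.4 (14.5 to 41.2), which overlaps the level of cells with none (14.7 to 21.9). In VISTA KO the values were 50.9 (25.4 to 91.0) and 21.8 (10.9 to 38.9), and the latter likewise overlaps cells with none (12.3 to 17.2). These VISTA KO intervals also overlap each other, and both values rest on 11 UMIs. Eif5a and Sat1 in WT cells with 8 or more genes, at 749 CPM (683 to 820) and 290 (250 to 336), kept apart from cells with none. In the 25 VISTA KO cells with 4 to 7 genes Sat1 stood at 569 CPM (473 to 679), which overlaps cells with none (586.5 to 618). Sat1 stood at 297 and 556 in WT, -0.90 (-1.09 to -0.73), and at 404 and 602 in VISTA KO, -0.57 (-0.75 to -0.40). For Smox the values were 49.1 and 94.2 CPM in WT and 41.6 and 79.2 in VISTA KO. Eif5a stood at 756 and 519 CPM in WT and at 648 and 488 in VISTA KO, Odc1 at 89.4 and 55.1 and at 90.0 and 67.4, and Sms at 85.1 and 45.5 and at 65.1 and 42.8. Oaz1 was 0.15 and 0.17 higher on the log2 scale, below the size rule, and Azin1 and Oaz2 had intervals across equality.

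Cluster and depth moved with the cycle. Of the cycling macrophage-like cells, 74 of 81 in WT and 62 of 71 in VISTA KO lay in cluster 12, and their median depth was 10390 and 9772 UMIs, against 4631 and 4254 in cells with none of the genes. Within cluster 12 alone, where 5 genes had enough UMIs, Eif5a stood at 784.5 against 594 CPM in WT, a log2 ratio of 0.40 (0.22 to 0.58), and at 660 against 541.5 in VISTA KO, 0.29 (0.10 to 0.47). Sat1 stood at 283 against 393 in WT, -0.47 (-0.73 to -0.22), and at 343.5 against 467 in VISTA KO, -0.44 (-0.68 to -0.21). Odc1 in VISTA KO stood at 94.3 against 105 CPM there, -0.14 (-0.63 to 0.31), opposite to its sign over all macrophage-like cells. Thinned to 1000 UMIs per cell, 0 genes passed as higher in WT and 1, Eif5a, in VISTA KO, and 1, Sat1, as lower in each. The share of all genes that passed was not computed for thinned cells or within cluster 12, so these counts have none beside them. In other classes with at least 20 cycling cells most of these genes did not pass. In mixed neutrophil droplets (48 and 21 cycling cells) none of Odc1, Srm, Sms, Eif5a and Sat1 passed in either library. There Smox passed as lower in WT, 1 of 9 tested, where 16.4% of genes passed, and 0 of 7 passed in VISTA KO, where 6.90% did. In 31 cycling monocyte-like cells of WT, Azin1 (87.0 against 45.7 CPM) and Oaz1 (1555 against 1186) passed as higher and Smox (54.4 against 102) as lower, 3 of 9 tested, where 14.5% of genes passed. The 18 and 17 cycling NK cell-like, 7 and 10 cDC2-like, 19 and 2 T cell-like and 2 VISTA KO monocyte-like cells were too few for the ratio.

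**Figure D5:**
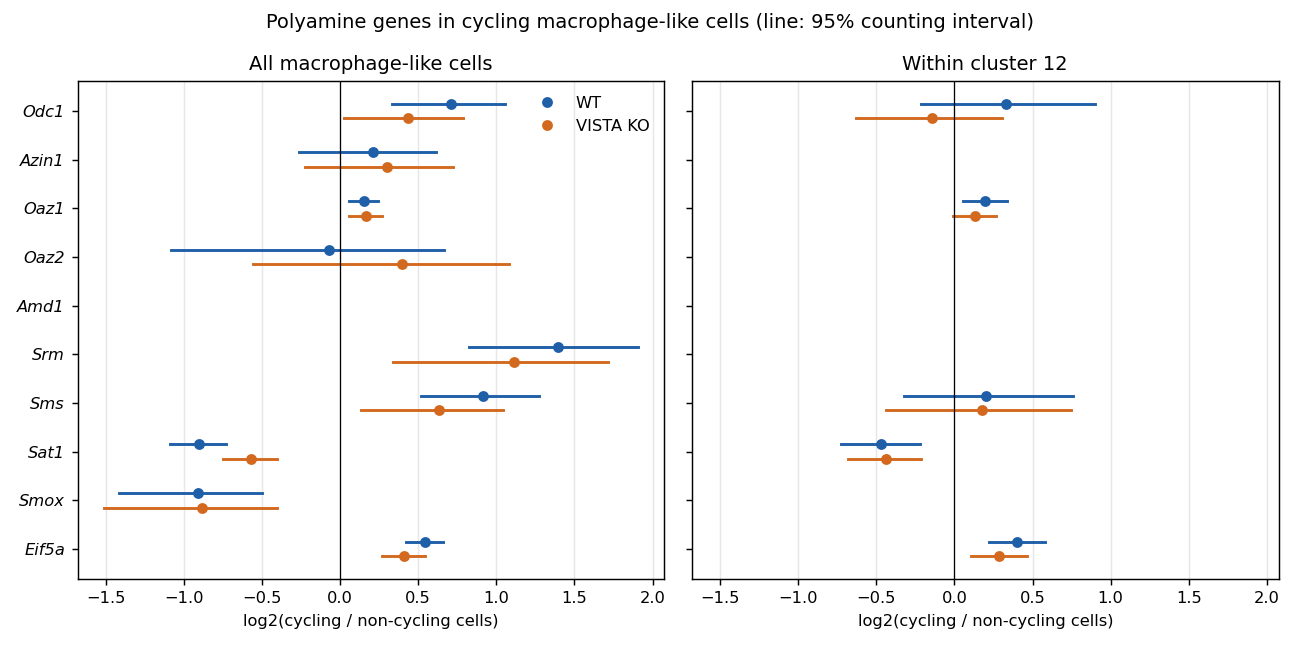
Log2 ratio of cycling over non-cycling cells (horizontal axis) for each gene, over all macrophage-like cells (left) and within cluster 12 (right), WT in blue and VISTA KO in orange, with 95% counting intervals as lines; genes under 100 UMIs are not drawn. Srm, Sms, Eif5a and Odc1 lie right of 0 and Sat1 and Smox left of it over all macrophage-like cells, and the ratios of Sms, Eif5a and Sat1 are smaller in size within cluster 12.

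The genes around the pathway came from 5 lists with 44 further genes of the matrices, covering arginine and ornithine supply, methionine salvage, relatives of the enzymes, hypusine and transport. In macrophage-like cells 23 of the 44 had enough UMIs, 3 were higher in VISTA KO and none was lower, a share near the 13.6% of all genes that passed there. The higher ones were Slc7a2, a carrier of arginine and other basic amino acids, at 22.3 CPM (19.4 to 25.6) and 40.7 (37.5 to 44.1), Enoph1, an enzyme of methionine salvage, at 8.37 and 11.1, and Atp13a2, a lysosomal polyamine exporter, at 73.9 and 96.4. At the lower end lay Slc22a4 at 5.37 and 3.67, Mtap at 14.6 and 12.5 and Paox, the acetylpolyamine oxidase, at 15.02 and 13.7, none of which passed, and Gpc1 (3.43 and 4.69) did not pass at the upper end. In monocyte-like cells 20 had enough UMIs and 3 were higher in VISTA KO, which is below the 22.4% of all genes that passed there: Arg2 at 13.8 and 17.9 CPM, Mat2a, which makes the methyl and aminopropyl donor, at 51.8 and 66.2, and Atp13a2 at 33.2 and 42.2. The lowest there were Dohh (26.9 and 22.0) and Dhps (32.7 and 26.9), the enzymes that make hypusine, and Oat (24.3 and 20.1), none of which passed. Among classes with at least 100 cells in both libraries where the gene held 100 UMIs, Arg1, the arginase that makes ornithine, had the largest ratio between its highest and lowest class. It stood at 219 and 260 CPM in cDC2-like, 633 and 543 in monocyte-like, 2927 and 2887 in macrophage-like and 3143 and 2662 in cluster 10 cells.

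The genes most like each of the 10 were ranked by Pearson's r of log2(CPM + 1) over 26 sums, each 1 class in 1 library with at least 100 cells, among 6928 genes. These sums share their library and differ in depth, so r is a description. Smox went with Acod1 (0.94), which is itself on the neutrophil marker list, Cmpk2 and Rab20. Sms went with Stmn1 (0.86), Mcm6 and Smc4, genes of dividing cells, and Odc1 with Cenpa (0.80), Ppp1cc and Sdf4. For Odc1, 1 of the 26 sums, WT T cell-like cells, stood at 601 CPM, and the next highest, WT NK cell-like cells, at 74.9. This sum may weigh heavily in each r of Odc1, that with Sms below included, and r without it was not computed. Srm went with Ruvbl1 (0.88), Nop58 and Sae1, and Eif5a with Atp5f1 (0.86), Mrps15 and Rrp15. Sat1 went with Klf3 (0.89), Nadk and Il17ra, Oaz1 with Btf3 (0.94), Ppp1ca and Rbm3, Oaz2 with Bap1 (0.91), Rhot2 and Trip4, Azin1 with Jmjd1c (0.84), Gxylt1 and Trim56, and Amd1 with Ngly1 (0.69), Bbc3 and Cdyl. For Oaz2, the sum of WT cluster 4 rested on 1 UMI, at 2.98 CPM. Srm rested on 2 UMIs in WT mature DC-like and on 1 in WT neutrophil-like cells. Such low sums may weigh heavily in the r of Oaz2 and Srm, and r without them was not computed. Among the 10 themselves the highest r were Oaz1 with Eif5a (0.72) and Odc1 with Sms (0.70), and the lowest was Sat1 with Eif5a (-0.52).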

How the data were processed

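RNA and surface tags were measured in sorted CD11b+ tumor cells, as whole-number UMI counts for 32285 genes and 3 tags per barcode, deposited by the authors without normalization. The matrices come from Cell Ranger 5.0.0, per the file headers. The build was mm10 and Seurat 4.0 was among the tools, per the submitters' processing notes. How cells were called, and what Seurat did, was not given in the sources used here.

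Cells were kept with at least 200 genes, 500 UMIs and at most 10% mitochondrial UMIs (99.5% of WT and 99.2% of VISTA KO barcodes). Both libraries were clustered together (scanpy 1.11.5, leidenalg 0.10.2, 2000 variable genes per library, excluding cell cycle, sex-linked marker, ribosomal and mitochondrial genes and Vsir, 30 components, 15 neighbours, resolution 1, seed 7), giving 20 clusters. Clusters were named from 18 marker lists: at least 3 markers 1.5-fold above other cells and in 20% of the cluster's cells. Another type's cluster with at least 3 macrophage markers in 60% of its cells was called mixed, and clusters with less support, or led by another type's markers, stayed unnamed. These thresholds were set after clusters had been seen, and rebuilt names may differ from the study's. No doublet caller was used. Leaving out the top 5% of cells by UMIs was an alternative.

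UMIs were summed per class and library. Intervals are exact Poisson for levels, Clopper-Pearson for shares and, for log2 ratios, with 1 UMI added to each sum, exact conditional binomial, all at 95%. Ratios were taken where both libraries had at least 100 cells. The ratio rule was run on simulated Poisson counts. These hold no variation between cells or libraries, so the simulation cannot show how the rule behaves with 1 library per group. Levels of all 10 genes were computed in every class, and the text gives a selection of them and each of the 10 counted as higher or lower between libraries. Of the other lists every gene with 100 UMIs was counted, and the 3 highest and 3 lowest ratios in monocyte-like and macrophage-like cells were named, with the gene of the largest ratio between classes with 100 UMIs of it and 100 cells in both libraries. The genes, lists and alternatives were chosen with earlier results of these data known. Promoter windows are from RefSeq, GRCm38.p6.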

Additional observations from a re-analysis of the deposited data

How the results depend on the processing

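No paired analysis was possible because there was only 1 library in a group. The share of all genes that passed was not computed under any alternative. The counts of genes below therefore show how the calls move with the setting and are no result about the 10 genes. Of 1020 log2 ratios of the 10 genes under alternatives, 917 stayed within the interval of the reported value, 100 moved outside it and 3 turned sign after having been counted, 890 of 1020 levels stayed within theirs and 130 did not, and of 216 counts of genes 178 stayed within 1.5 times. Clustering each library alone gave no lower gene in monocyte-like or macrophage-like cells (2 each as reported), 2 higher in monocyte-like cells (Odc1 and Sat1), 1 lower (Sms) and 2 higher (Sat1 and Smox) in NK cell-like cells, 1 lower in cDC2-like cells (Srm), and an Srm log2 ratio of 0.103 in monocyte-like cells. Lower genes in monocyte-like cells became 1 at resolution 0.5, at resolution 2, with a stricter cell filter and without cluster 1, which also gave 1 higher (Smox). In macrophage-like cells they became 1 at resolution 0.5, with the stricter filter (Smox, in place of Amd1 and Srm), without cluster 9 (Srm) or without cluster 12 (Amd1), and 0 without library-marking genes. At resolution 2 NK cell-like cells had 1 higher gene (Sat1). There WT Sat1 stood at 205.5 CPM (319 as reported) and Smox at 21.1 (51.0), with near the same under the stricter filter, and WT Smox in cDC2-like cells at resolution 0.5 stood at 45.6 (30.2). VISTA KO Smox in NK cell-like cells went as low as 25.3 (53.5), Srm in mature DC-like cells to 8.38 without the top 5% (13.7), and in monocyte-like cells Amd1 to 6.38 (4.25) and Srm to 10.01 (6.08) with each library alone. Clusters 0, 4, 6, 10 and 16, mixed cDC2 droplets and the cycling cells of other classes were not run under alternatives. A 1.5-fold rule left 0 in all kept cells, in macrophage-like cells and in mixed neutrophil droplets, and 1 in cDC2-like cells. Counting genes from 20 UMIs or from 1 UMI added 1 higher gene in mature DC-like cells (Srm). Scaling by the median gene gave 3 lower genes in all kept cells (Amd1, Sms and Smox). Without the top 5% of cells 1 lower gene was left in the mixed droplets (Sms), and without the neutrophil-like and mixed neutrophil droplets, an alternative added after seeing the data, 0 in all kept cells. Thinning to 1000 UMIs per cell, which leaves fewer UMIs, gave 0 lower genes in monocyte-like, macrophage-like and cDC2-like cells and in mixed droplets, with log2 ratios of 0.443 for Amd1 in monocyte-like and 0.426 for Odc1 in cDC2-like cells. In cycling cells it gave 0 higher and 1 lower gene in WT and 1 higher and 1 lower in VISTA KO, with Smox at 0.142 in VISTA KO. Within cluster 12, also added after seeing the data, 1 higher and 1 lower gene were left in WT and 0 higher and 1 lower in VISTA KO, with Odc1 at -0.142. Unless a cause is named, the cause was not tested. Low counts limit Amd1, Srm and Oaz2 most.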

Other observations

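Genes known as regulators around MYC and the stress response also differed between classes. Mxd1, a MAX partner that opposes MYC, was at 2186 CPM in neutrophil-like cells of WT and 2249 in those of VISTA KO, against 121 and 129 in macrophage-like cells. Nfe2l2, the antioxidant response factor, stood at 408 and 432.5 in neutrophil-like, 115 and 176 in monocyte-like and 112 and 141 in macrophage-like cells. Myc stood at 32.3 CPM in WT T cell-like cells and at 28.7 and 26.6 in NK cell-like cells, against 9.55 and 10.8 in macrophage-like and 2.86 and 2.41 in monocyte-like cells. Arg2, the mitochondrial arginase, was at 323 and 240 CPM in neutrophil-like cells and at 7.94 and 9.65 in macrophage-like cells. Slc7a1, another carrier of basic amino acids, stood at 18.3 and 23.4 in NK cell-like cells and at 8.15 and 8.16 in macrophage-like cells.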
